A study of Arabidopsis thaliana with 2 samples.

Results

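The B-box zinc finger (BBX) family of *Arabidopsis thaliana* holds 32 genes, BBX1 to BBX32, which were picked by locus identifier from the 27444 annotated protein-coding genes of the nuclear genome. ChIP-seq with an anti-FLAG antibody had been done on an MBD9-3xFLAG line and on an untagged wild-type control, with 1 library for each, to find where the methyl-CpG-binding domain protein MBD9 sits on chromatin. The MBD9-3xFLAG plants carried the tagged gene under its own promoter in the *mbd9-3* mutant, and the wild-type plants carried no tag. Both were Col-0 seedlings, labelled as shoots, taken 13 days after germination, and all values for MBD9 come from a single transgenic line. The deposited values were 13993 summits, the bases of highest signal within 10348 peaks called against the wild-type library, each with a score equal to −log10 of its q value. Because each group had 1 library and read depth is unknown, no difference below has a replicate check or a test, and a gene without a summit is one at which none was called.

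BBX proteins are transcription regulators that carry 1 or 2 zinc-binding B-box domains near the N terminus, and some also carry a C-terminal CCT domain that serves nuclear import and DNA binding. CONSTANS, the founding member, activates FT in long days and so couples day length to flowering. Many other members act in seedling light responses, where they bind the bZIP factor HY5 or are degraded through the ubiquitin ligase COP1.

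The family is divided into structural groups I to V, and protein patterns were used to check this division. The CCT pattern was found in all 17 proteins of groups I to III and in 0 of the 15 proteins of groups IV and V. B-box patterns numbered 2 in all 6 proteins of group I and all 8 of group IV, and 1 in all 4 of group III and all 7 of group V. In group II, 5 proteins had 2 B-box patterns and 2 (BBX9 and BBX10) had 1.

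The windows below show the DNA under the strongest upstream summits of the family, 50 bp to each side of the summit base, in TAIR10 coordinates and 5′ to 3′ along the strand of the gene. They belong to 5 of the 6 members with the highest-scoring upstream summits. The remaining one, BBX2, is not shown because its window overlaps an untranslated region of a neighbouring gene. Capitals mark ACGT, the core of the elements that bZIP factors such as HY5 bind.
BBX7, chr3:2441352-2441452, plus strand, score 68.1: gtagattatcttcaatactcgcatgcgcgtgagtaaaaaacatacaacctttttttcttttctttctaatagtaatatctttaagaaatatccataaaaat
BBX29, chr5:22115953-22116053, minus strand, score 56.1: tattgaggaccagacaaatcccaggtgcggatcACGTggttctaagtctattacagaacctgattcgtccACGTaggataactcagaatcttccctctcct
BBX28, chr4:13674996-13675096, plus strand, score 44.6: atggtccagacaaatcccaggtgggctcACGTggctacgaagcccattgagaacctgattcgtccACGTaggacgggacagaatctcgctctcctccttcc
BBX9, chr4:8711627-8711727, minus strand, score 38.1: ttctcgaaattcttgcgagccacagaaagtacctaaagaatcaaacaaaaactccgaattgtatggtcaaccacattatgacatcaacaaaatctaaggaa
BBX8, chr5:19563851-19563951, minus strand, score 37.1: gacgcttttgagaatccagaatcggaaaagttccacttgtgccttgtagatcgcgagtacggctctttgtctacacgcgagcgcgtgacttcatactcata
The windows of BBX28 and BBX29 each held 2 ACGT cores, and those of BBX7, BBX8 and BBX9 held 0.

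Upstream summits were common in the family. Within 1 kb before the transcription start site (TSS, the 5′ end of the annotated gene), 16 of 32 BBX genes had a summit, or 50% (95% Wilson interval 33.6 to 66.4), against 4736 of 27412 other protein-coding genes, or 17.3% (16.8 to 17.7). The background over all protein-coding genes was 17.3%. In the gene itself, 16 BBX genes (50%) had a summit, against 13.6% of the other genes and a background of 13.6%. Either region held a summit at 24 BBX genes (75%, interval 57.9 to 86.7), against 26% of the other genes and a background of 26.1%. The intervals cover counting error only and take the genes as independent, which related genes are not.

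The 32 genes fell evenly into 4 classes of 8. Summits lay both upstream and in the gene at BBX2, BBX4, BBX5, BBX14, BBX15, BBX17, BBX20 and BBX28, and upstream only at BBX7, BBX8, BBX9, BBX16, BBX19, BBX22, BBX29 and BBX30. They lay in the gene only at BBX6, BBX12, BBX13, BBX21, BBX25, BBX27, BBX31 and BBX32. Neither region held a summit at BBX1, BBX3, BBX10, BBX11, BBX18, BBX23, BBX24 and BBX26. The class with both regions made up 25% of BBX genes and 4.85% of the other genes.

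**Figure D1:**
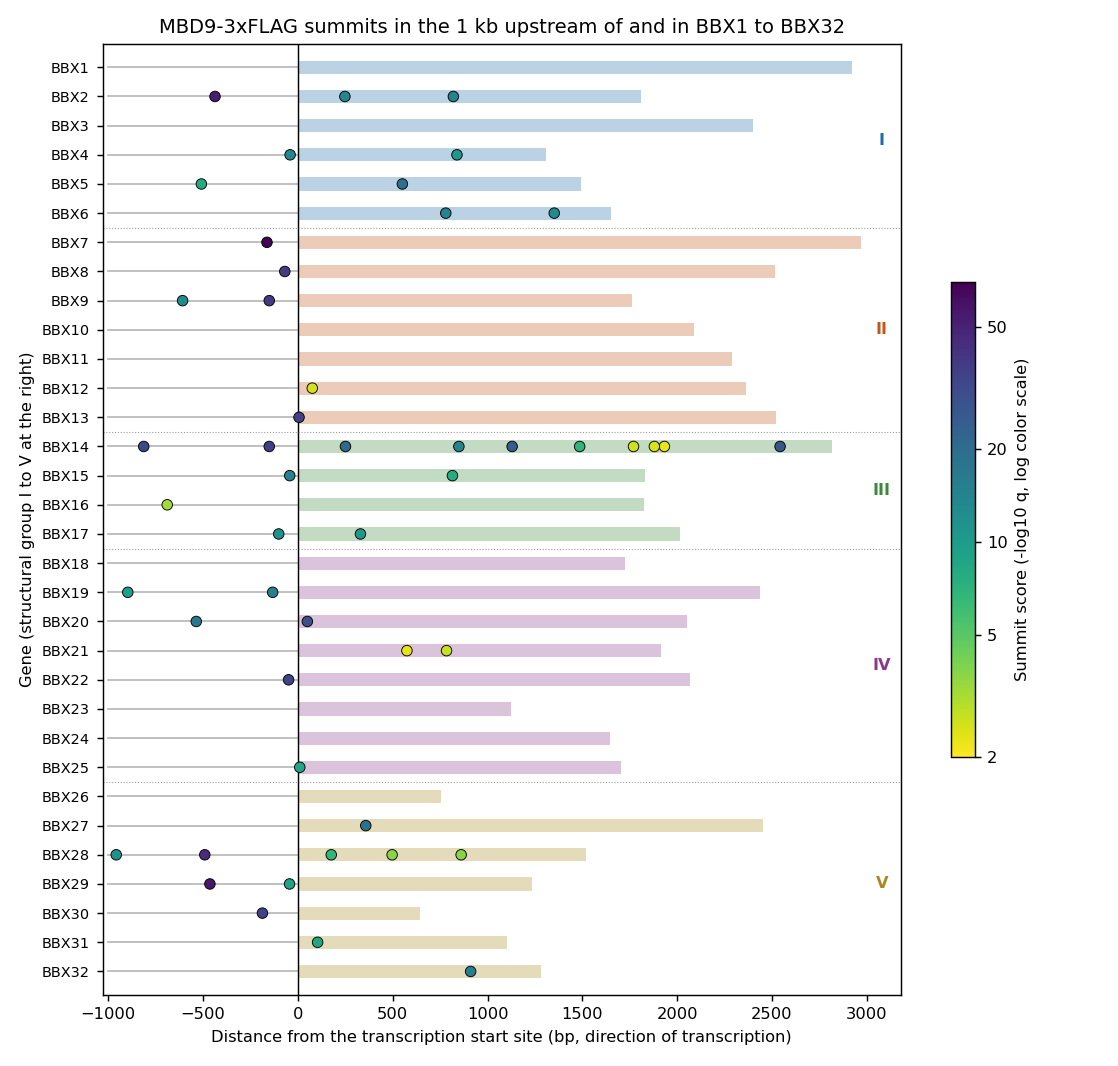
Each line is 1 BBX gene, with its 1 kb upstream region (thin line) and the gene (bar, colored by structural group) drawn to scale by distance from the TSS in bp, and each point is a summit colored by its score (−log10 q, log color scale). Upstream points appear at 16 genes, BBX14 carries 8 points in the gene, and 8 genes carry none.

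The summit count followed the same pattern. The family had 21 upstream summits, or 0.656 per gene, against 0.209 per gene at the other genes. It had 28 summits within genes, or 0.465 per kb of gene, against 0.0948 per kb. BBX14 alone held 8 of these 28, and without it the density was 0.348 per kb. The median gene length was 1827.5 bp in BBX genes and 2078 bp in the others. The median gap to the nearest annotated gene upstream was 843 bp for BBX genes and 720 bp for the others. Among genes with a gap of 1 kb or more, 7 of 14 BBX genes (50%) and 2226 of 11230 other genes (19.8%) had an upstream summit.

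Upstream summits of the family lay near the TSS, at a median distance of 187 bp (n = 21), against 335 bp at the other genes (n = 5718). Of the BBX summits 11 (52.4%) were within 200 bp, against 37.4% elsewhere, and 5 (23.8%) were beyond 600 bp, against 29.2%. A window of 200 bp to either side of the TSS, chosen after the values were seen, held a summit at 17 of 32 BBX genes (53.1%) and at 12.6% of the others.

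The scores of BBX upstream summits ranged over 3.29 to 68.1 with a median of 16.7 (quartiles 11.7 and 37.1, n = 21). Summits upstream of other genes had a median of 11.2 (quartiles 5.88 and 23.1, n = 5078). A score of 30 or more was reached by 10 BBX upstream summits (47.6%) and by 17.7% of the others. Counted by gene, 9 BBX genes (28.1% of the family) and 936 other genes (3.41%) had an upstream summit this strong. Scores in the gene were lower, with a median of 10.6 in BBX genes (n = 28) and 7.66 in the others (n = 6064). A score of 30 or more was reached there by 1 BBX summit (3.57%) and by 8.62% of the others, the reverse order. The BBX upstream median depends on the window, since it was 35.3 with a 500 bp window, where that of the others stayed at 11.2.

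**Figure D2:**
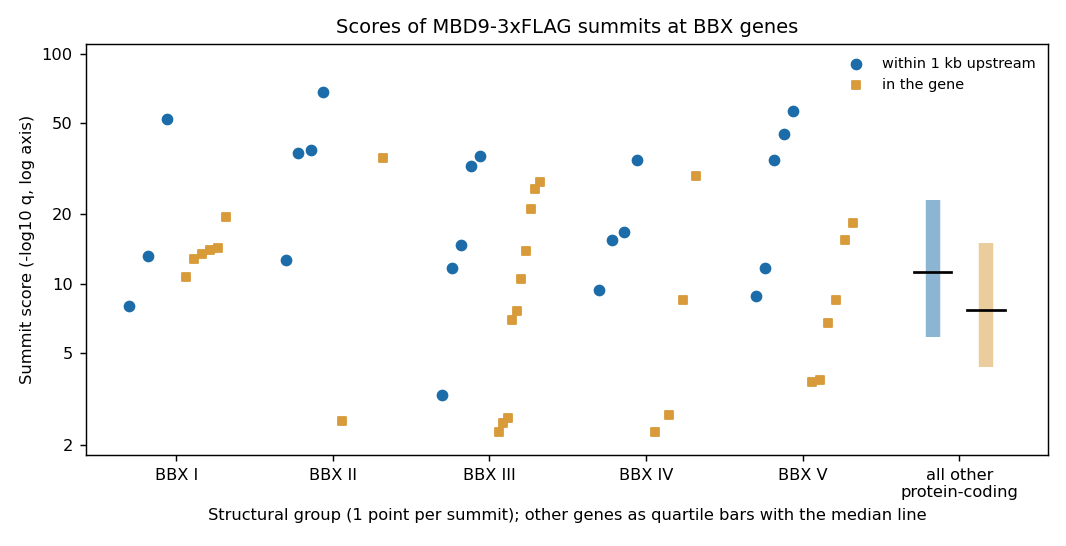
Scores (−log10 q, log axis) of summits in the 1 kb upstream region (circles) and in the gene (squares) are plotted by structural group, with 1 point per summit, and other protein-coding genes are shown as quartile bars with the median. The highest point is the upstream summit of BBX7 at 68.1, and the upstream points of BBX genes have a median of 16.7 against 11.2 for the others.

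Group I holds CONSTANS (BBX1) and its closest homologs, and 3 of its 6 genes had an upstream summit. CONSTANS itself (AT5G15840, chr5:5170162-5173085, minus strand) had none upstream or in the gene, and neither had BBX3 (COL2). Its neighbour BBX2 (COL1, AT5G15850, chr5:5176091-5177897, minus strand) had the strongest upstream summit of the group, 437 bp before the TSS with a score of 51.8. That base also lies inside the annotated genes AT5G15853 and AT5G15860, so it cannot be assigned to BBX2 alone. BBX2 also had summits in its 5′ untranslated region (13.5) and coding sequence (14.2). Both lie inside the noncoding gene AT5G15845, and the first also lies upstream of AT5G15853.

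BBX4 (COL3, AT2G24790, chr2:10566836-10568145, plus strand), which acts in light signalling, had a summit 41 bp upstream with a score of 13.2. The same summit lies upstream of AT2G24780. BBX5 (COL4, AT5G24930, chr5:8589457-8590949, plus strand), a repressor of flowering, had a summit at 509 bp upstream with a score of 7.98. Its strongest summit was in the gene, at 19.5. BBX6 (COL5) had 2 summits in the gene (14 and 12.9) and none upstream.

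Group II had upstream summits at 3 of 7 genes. The median score of these summits, 37.6 (n = 4), was the highest of the 5 groups, followed by 34.5 (n = 5) in group V. BBX7 (COL9, AT3G07650, chr3:2441565-2444532, plus strand), which delays flowering, had the strongest upstream summit of the family, 163 bp before the TSS with a score of 68.1. It ranked 353 of the 13993 summits. Its closest relative BBX8 (AT5G48250, chr5:19561319-19563832, minus strand) had one of 37.1 at 69 bp. BBX9 (AT4G15250, chr4:8709767-8711526, minus strand) had summits of 38.1 at 151 bp and 12.7 at 608 bp, the first inside the noncoding gene AT4G06300. BBX13 had a summit of 35.2 only 6 bp downstream of its TSS, the strongest within any BBX gene. That base also lies upstream of AT1G28060, so it cannot be assigned to BBX13 alone. BBX12 had a summit of 2.53 in the gene. BBX10 and BBX11 had no summit.

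In group III, which has a single B-box and a CCT domain, all 4 genes had an upstream summit. The number was 3 with a 500 bp window, and also 3 with scores of at least 5. BBX14 (AT1G68520, chr1:25708175-25710989, minus strand) had 10 summits in 2 peaks, the largest number in the family. Its upstream summits scored 36.0 at 151 bp and 32.6 at 813 bp, and the 8 in the gene scored 2.27 to 27.6. The one of 27.6 also lies inside the protein-coding gene AT1G68510, so it cannot be assigned to BBX14 alone. Others scored 2.27, 2.48 and 2.60, near the lowest deposited score of 2. At least 8 summits in the gene were found at 13 of the 27412 other genes (0.0474%). BBX15 (AT1G25440, chr1:8933716-8935544, minus strand) had a summit of 14.7 at 43 bp and one of 7.63 in the gene. BBX17 (AT1G49130, chr1:18174373-18176389, minus strand) had one of 11.7 at 101 bp and one of 10.5 in the gene. BBX16 (AT1G73870, chr1:27778984-27780809, plus strand) had the weakest upstream summit of the family, 3.29 at 689 bp.

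Group IV contains the members best known for seedling light responses, and 3 of its 8 genes had an upstream summit. BBX22 (LZF1, AT1G78600, chr1:29566863-29568931, plus strand), which promotes photomorphogenesis with HY5, had a summit of 34.3 at 49 bp. The gap to the nearest annotated gene upstream is 50 bp, so this summit cannot be assigned to BBX22 alone. BBX20 (BZS1, AT4G39070, chr4:18204631-18206684, minus strand), which acts in light and brassinosteroid signalling, had one of 16.7 at 536 bp and a stronger one of 29.5 at 50 bp inside the gene. BBX19 (AT4G38960, chr4:18160903-18163341, plus strand), a repressor of flowering that binds CONSTANS, had summits of 15.5 at 133 bp and 9.36 at 897 bp. The first also lies upstream of AT4G38950 and the second inside it. BBX21, a partner of HY5, had weak summits in the gene (2.27 and 2.69), and BBX25 (STH) had one of 8.50. BBX18, BBX23 and BBX24 (STO) had none.

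Group V, with a single B-box and no CCT domain, had upstream summits at 3 of 7 genes and a summit in either region at 6. BBX29 (AT5G54470, chr5:22114304-22115539, minus strand) had summits of 56.1 at 464 bp and 8.88 at 44 bp. BBX28 (AT4G27310, chr4:13675537-13677055, plus strand), which binds HY5 and lowers its activity, had summits of 44.6 at 491 bp and 11.7 at 958 bp. It had 3 weaker ones in the gene, of 3.75 to 6.77. BBX30 (AT4G15248, chr4:8708841-8709482, plus strand) and BBX31 encode microProteins that bind CONSTANS. BBX30 had a summit of 34.5 at 187 bp, whereas BBX31 had only one of 8.47 in the gene. BBX27 and BBX32 had summits in the gene of 18.3 and 15.5, and BBX26 had none. The BBX32 summit also lies upstream of AT3G21140.

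**Figure D3:**
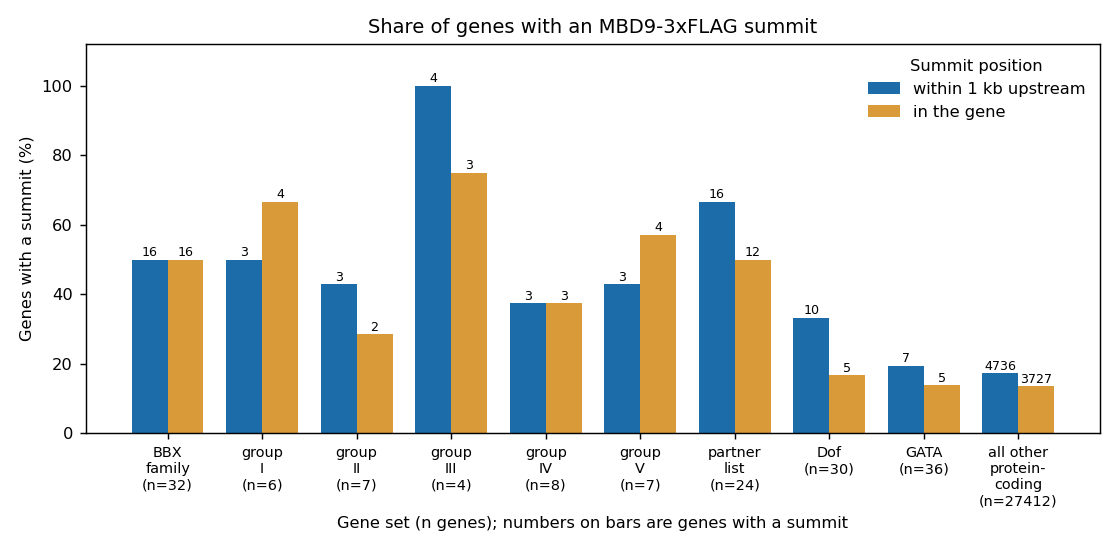
Bars give the percentage of genes with a summit within 1 kb upstream or in the gene, with the number of genes above each bar, for the BBX family, its groups I to V, the partner list, 2 other zinc finger families and all other protein-coding genes. The 5 BBX groups run between 37.5% (group IV) and 100% (group III) for upstream summits, and the other protein-coding genes are at 17.3%.

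The 28 summits within BBX genes were placed on the annotated transcripts. Coding exons held 15 (53.6%), the 5′ untranslated region 9 (32.1%), and the 3′ untranslated region 4 (14.3%), which were all in BBX14. Introns held 0 of the 28, and 15.3% of the bases of BBX genes lie outside the exons of any mRNA. In the other genes, coding exons held 41.4% of summits and introns 13.4%. The share of bases outside exons is not given for the other genes, and BBX14 alone held 8 of the 28 BBX summits. Only uniquely mapping reads were kept, and at least 90% of 50-base words were unique in 30 of 32 upstream regions. The exceptions were BBX4 (66.9%) and BBX18 (55.5%).

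Related members were compared by protein identity, counted over the length of the shorter protein. By this measure 12 pairs were each other's closest relatives (identity 47.5% to 76.2%). Both genes had an upstream summit in 4 pairs, 1 gene in 6 pairs and neither in 2. The pairs with both were BBX4 and BBX5, BBX7 and BBX8, BBX14 and BBX15, and BBX28 and BBX29. In the closest pair, BBX18 and BBX19 (76.2%), only BBX19 had one.

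The strongest upstream summits of BBX28 and BBX29 lay in or near shared sequence, a comparison made after their values were seen. The longest word common to their upstream regions was 24 bp, and it occurs 2 times in the nuclear genome, at chr4:13675045-13675068 (plus strand) and chr5:22115976-22115999 (minus strand). Its centre lies 10.5 bp from the BBX28 summit and 15.5 bp from the BBX29 summit. For BBX14 and BBX15 the longest common word was 15 bp, also found 2 times. Its centres lie 18 bp and 12 bp from the strongest upstream summit of each gene. Both words are shown because each occurs nowhere else in the genome, with ACGT in capitals.
BBX28 and BBX29: agaacctgattcgtccACGTagga
BBX14 and BBX15: aagaagctgaccaat
The summit windows of BBX28 and BBX29 aligned over 96 columns with 82.3% identity. Their alignment score of 99 was the highest of 120 pairs of BBX windows, whose median was 15, and that of BBX14 and BBX15 followed with 50. These 120 pairs come from the 16 members with an upstream summit, so only 4 of the 12 pairs of closest relatives are among them. The other 10 pairs of relatives shared words of 10 to 13 bp that occur 22 to 1835 times in the genome. Local alignment of the upstream regions covered 229 columns (76.0% identity) for BBX28 and BBX29 and 130 columns (78.5%) for BBX14 and BBX15. It covered 139 columns (71.9%) for BBX30 and BBX31, although BBX31 had no summit within 1 kb upstream. Shared upstream sequence was thus not limited to pairs in which both genes had an upstream summit.

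Known light and clock elements were counted within 50 bp of the 21 upstream summits, on both strands. The G-box CACGTG, which contains ACGTG, was found at 2 (9.52%, at BBX28 and BBX29), against 11.0% of 5078 summits upstream of other genes and 1.55% of all 101 bp windows upstream of genes. ACGTG was found at 6 (28.6%), against 25.2% of the other summits and 7.81% of windows. These 6 were 1 summit each at BBX4 and BBX19 and both upstream summits of the close relatives BBX28 and BBX29. The order of BBX and other summits depended on the window for CACGTG, which within 25 bp was found at 9.52% of BBX summits against 6.20%, and within 100 bp at 19.0% against 17.3%. ACGTG was found at 28.6% of BBX summits against 14.6% within 25 bp, and at 29.4% against 30.1% when only scores of at least 10 were kept. GATAAG was found at 1 (4.76%), against 6.48% and 5.00%, and AAAATATCT at 0, against 0.965% and 0.732%.

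Genes that act with BBX proteins were examined through a list of 24. An upstream summit was present at 16 (66.7%) and a summit in the gene at 12 (50%), beside backgrounds of 17.3% and 13.6% over all protein-coding genes. With scores of at least 10 an upstream summit was present at 11 (45.8%), against 10.2% of genes outside the BBX family. The 24 genes were longer and more widely spaced than most, with a median length of 3619.5 bp and a median upstream gap of 1444.5 bp. They held 0.198 summits per kb of gene. HY5, the bZIP partner of several group IV members, had an upstream summit of 29.0 at 124 bp, and COP1 had one of 13.1 at 55 bp. TPL, the co-repressor recruited by BBX30 and BBX31, had the strongest of the list, 94.8 at 211 bp. CDF5 followed with one of 66.7 at 816 bp. PHYB, the red light receptor, had one of 58.2, and SOC1, a flowering integrator, one of 57.4. The strongest upstream summits of CRY2 and SPA1 scored only 2.64 and 2.69. FT, the target of CONSTANS, had no summit upstream or in the gene, and neither had DET1 or SPA2. For comparison, upstream summits were present at 10 of 30 Dof genes (33.3%) and 7 of 36 GATA genes (19.4%), and 4 of the partner genes are also Dof genes. With a 500 bp window 5 Dof genes (16.7%) had one, against 12.3% of genes outside the BBX family. With scores of at least 5 there were 5 GATA genes (13.9%), against 14.7%.

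The share of BBX genes with an upstream summit stayed above that of the other genes under each of the 8 other counting choices tried. It was 40.6% with a 500 bp window, against 12.3%, and 56.3% with a 2 kb window, against 23.7%. With each upstream region ended at the nearest annotated neighbouring gene it was 43.8%, against 13.5%. The ratio of the shares was 2.89 as first counted and ran between 2.38 and 4.31 over these choices.

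**Figure D4:**
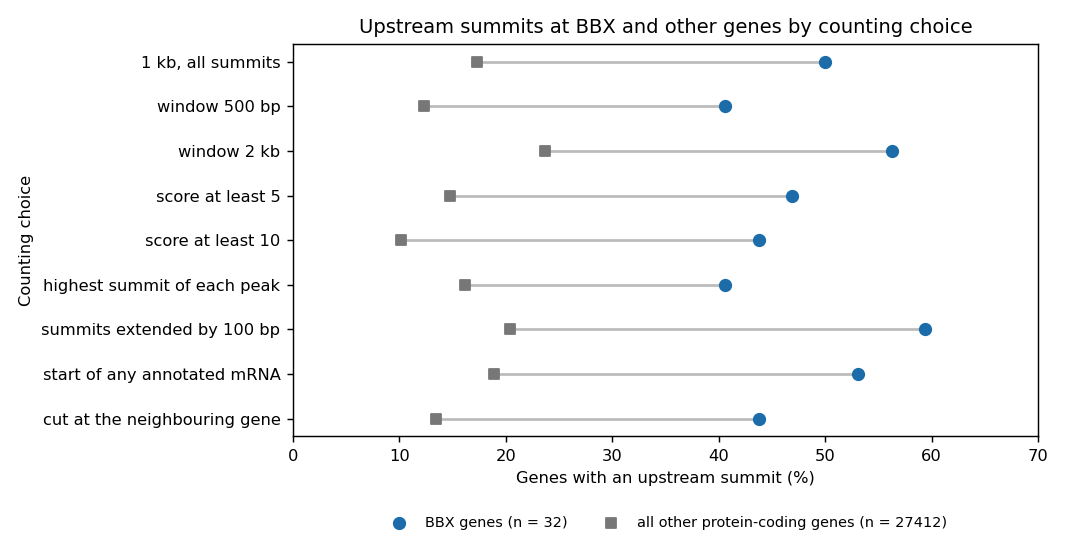
The percentage of genes with an upstream summit is plotted for BBX genes (circles, n = 32) and all other protein-coding genes (squares, n = 27412) under each counting choice. BBX genes lie above the other genes in every line, between 40.6% and 59.4%.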

How the data were processed

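Seedling chromatin of the MBD9-3xFLAG line and of the wild type was immunoprecipitated with an anti-FLAG antibody, 1 library each. The authors aligned reads with Bowtie to TAIR10 without organelles, kept uniquely mapping reads, removed duplicates with SAMtools and called summits with MACS2 2.1.1 against the wild-type library. The deposited score is −log10 of the q-value, with a lowest value of 2. Read totals and coverage were not used here.

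Summits were converted to 1-based positions and assigned to genes of the RefSeq TAIR10.1 annotation, which has the nuclear sequence of TAIR10 but can place gene starts differently from the annotation used in the study. Upstream was 1000 bp before the 5′ end of the gene. Shares carry 95% Wilson intervals. Proteins translated from the annotation were aligned globally (BLOSUM62), and DNA locally, with Biopython 1.88. Counting was tested on simulated data. All BBX genes were named; sequence was considered for the 6 members with the highest upstream scores and shown for the 5 whose window overlaps no untranslated region. The alternatives were other windows, score limits, summit choices and gene starts. The members, lists and comparisons were chosen with earlier results of these data known.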

Additional observations from a re-analysis of the deposited data

How the results depend on the processing

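Of 72 alternative values for 17 results, 62 stayed within 1.5 times the value reported and 10 moved further. These counts do not cover the order of 2 groups, which turned for CACGTG (within 25 bp and 100 bp), ACGTG and GATA as given above. With a score of at least 10, BBX genes with a summit in the gene numbered 10 and summits in BBX genes 15; with only the highest summit of each peak, summits in BBX genes numbered 11. The median score of BBX upstream summits was 35.3 with a 500 bp window and also 35.3 with the highest summit of each peak. With 100 bp to each side, CACGTG was found at 4 BBX upstream summits and ACGTG at 11. Group II had 5 genes with an upstream summit in a 2 kb window, Dof had 5 in a 500 bp window, and GATA had 4 with a score of at least 10. The cause of these shifts was not tested. No paired analysis was possible because there was a single library for MBD9-3xFLAG and one for its control. Depth is unknown, so how many weak summits were missed cannot be given.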

Other observations

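Summits also lay past the 3′ end of some BBX genes. Within 1 kb after the gene end, 7 of 32 BBX genes (21.9%) had a summit, against 12.1% of the other protein-coding genes. They were BBX2, BBX6, BBX15, BBX21, BBX25, BBX28 and BBX29. The BBX25 summit scored 2.64 and lies inside the protein-coding gene AT2G31390, and the BBX2 summit lies inside the noncoding gene AT5G15845. The strongest was at BBX28, with a score of 51.8, which exceeds the 44.6 of its strongest upstream summit. BBX6 and BBX21, which had no upstream summit, had scores of 27.6 and 14.7 past the gene end.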
